A study of Homo sapiens with 13 samples.

Results

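The receptor tyrosine kinases EGFR, ERBB2, ERBB3, MET, AXL, IGF1R, INSR, FGFR1, EPHA2 and DDR1 were followed through ribosome profiling of MDA-MB-231 cells given Silvestrol or INK128. The 10 genes were taken by symbol, all 10 were found among the 24875 symbols of the Silvestrol data and the 13121 genes of the INK128 data, and 8 of them passed the minimum values set for testing, as did 10505 genes in all. ERBB3 had too few ribosome footprints and DDR1 had none in the Silvestrol experiment. MDA-MB-231 is a human triple-negative breast cancer line of mesenchymal character, Silvestrol inhibits the RNA helicase eIF4A, and INK128 inhibits the catalytic site of the kinase mTOR. Both drugs were set against cells given the vehicle DMSO, to ask which mRNAs need each activity for their translation.

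In the Silvestrol experiment there were 7 ribosome footprint (RF) libraries and 2 mRNA libraries. At passage 3 there was 1 RF library each of untreated cells and of DMSO and Silvestrol (25 nM) cells at 1 h and at 2 h. Passage 4 added another pair of RF libraries at 2 h, whereas mRNA was sequenced once per treatment, at 2 h and passage 3. The INK128 experiment had 1 RF library and 1 total RNA library each from cells given DMSO or 200 nM INK128 for 2 h. All cells were 1 line in culture, so the replicates are passages of that line, and p-values cover the spread between passages only. One field of the passage 3 Silvestrol 2 h RF library gives 1 h as its time, and one field of the DMSO mRNA library gives it as untreated. The groups used here follow the library titles. The deposited column of control mRNA names no treatment and was taken as the DMSO library, and every mRNA ratio and TE value of the Silvestrol experiment rests on that. Counted reads ranged from 2652423 in the passage 4 Silvestrol library to 50315607 in the DMSO mRNA library. Footprints of VIM and CD44 were abundant, ESR1 and ALB had none, and CDH1 and PTPRC were below 0.05 RPKM, the reads per length and depth, in the untreated and 2 h DMSO libraries. Against the labelled type, SPARC was below 1 RPKM, GATA3 was at 6.54 to 8.45 RPKM, EPCAM, an epithelial gene, at 3.24 to 9.69 RPKM, and COL1A1, a fibroblast gene, at 1.26 to 1.76 RPKM, and their part in the results was not tested.

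Receptor tyrosine kinases span the plasma membrane, bind a ligand outside the cell and phosphorylate tyrosines inside it, which recruits adaptors such as GRB2 and IRS1 and passes the signal to the RAS and PI3K pathways. EGFR, the ERBB proteins and MET drive growth of many carcinomas, IGF1R and INSR bind insulin-like growth factors and insulin, and AXL and EPHA2 are known for high levels in mesenchymal breast cancer lines. Translation of each receptor starts when a ribosomal subunit loaded at the cap scans the 5′ untranslated region (UTR) to the start codon, and eIF4A unwinds RNA structure on that path.

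The start codon contexts of 9 receptors are shown because they are the end point of that scanning. Each line runs 5′ to 3′ on the coding strand, from 9 bases before to 3 bases after the start codon, which is in capitals. That of FGFR1 is not printed here. The contexts are from GRCh37, at the start codons of the GENCODE 44 transcripts lifted to that build.
EGFR: ggagcagcgATGcga
ERBB2: gtgagcaccATGgag
ERBB3: tgcggagtcATGagg
MET: cctctcataATGaag
AXL: ttggcacccATGgcg
IGF1R: ataaaaggaATGaag
INSR: cccgcagccATGgcc
EPHA2: aagcgcggcATGgag
DDR1: tcaggagctATGgga
The start codons lie at chr7:55086971-55086973 (EGFR, + strand), chr17:37856492-37856494 (ERBB2, +), chr12:56474085-56474087 (ERBB3, +), chr7:116339139-116339141 (MET, +), chr19:41725298-41725300 (AXL, +), chr15:99192811-99192813 (IGF1R, +), chr19:7293900-7293902 (INSR, -), chr1:16482425-16482427 (EPHA2, -) and chr6:30856507-30856509 (DDR1, +). A purine stood 3 bases before the start codon in 8 of the 9, AXL with its c being the other, against 87.5% of 10169 genes. A g followed the start codon directly in 5 of the 9, against 54.8% of those genes. IGF1R, with one of the lowest footprint ratios under Silvestrol, and EGFR, with the highest of the 8 tested receptors, both have a g at the upstream position and no g directly after the start codon. Whether these bases bear on the footprint ratios was not tested, and the context of FGFR1 is not among the 9.

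The receptors' 5′ UTRs ran from about the median length to among the longest. The median 5′ UTR of 10243 tested genes was 132 nucleotides (nt), and all 10 receptors were above it, ERBB3 at 136 nt and EPHA2 at 137 nt only just, and AXL and ERBB2 at the 59.7 and 61.0 percentiles. That of IGF1R was 1043 nt, longer than in 99.4% of genes, with a predicted minimum folding energy of -531 kcal/mol against a median of -51.6 kcal/mol. The 5′ UTR of FGFR1 was 743 nt with -394 kcal/mol, that of INSR 523 nt with -284 kcal/mol and that of MET 396 nt with -228 kcal/mol. EGFR had 261 nt, DDR1 234 nt, ERBB2 175 nt and AXL 170 nt. GC content lay between 66.9% in ERBB3 and 79.4% in ERBB2, around and above the median of 67.6%. Of the 10 receptors 7 had an ATG upstream of the start codon, MET and FGFR1 3 each, against 38.7% of genes with at least 1. The repeat CGGCGGCGGCGG, searched for on the transcript strand only, was in the 5′ UTR of IGF1R and of no other receptor, and in that of 4.68% of genes.

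Before any drug, AXL, the receptor for GAS6, carried the most footprints and ERBB3 the fewest of the 9 receptors with any. RF levels of AXL were 107 RPKM in untreated cells, 119 RPKM after DMSO for 1 h, and 109 and 162 RPKM after DMSO for 2 h at passages 3 and 4. EPHA2, a receptor for ephrins, had 37.5 to 49.7 RPKM over the same 4 libraries, and EGFR had 18.4 to 27.4 RPKM. MET, the receptor of hepatocyte growth factor, had 11.98 to 19.9 RPKM, and FGFR1, a receptor of fibroblast growth factors, 8.60 to 15.8 RPKM. ERBB2 followed with 3.27 to 4.05 RPKM, IGF1R with 2.05 to 2.72 RPKM and INSR with 1.81 to 2.64 RPKM. The ranges of EGFR and MET overlapped across libraries, as did those of MET and FGFR1 and those of IGF1R and INSR, but within each of the 4 libraries EGFR was above MET, MET above FGFR1 and IGF1R above INSR. The order of IGF1R and INSR rested on 93 and 91 reads at passage 4. It was reversed in the DMSO RF library of the INK128 experiment, with 1.10 FPKM for IGF1R and 2.29 FPKM for INSR. ERBB3, which signals as a partner of ERBB2, lay at 0.328 to 0.419 RPKM.

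**Figure D1:**
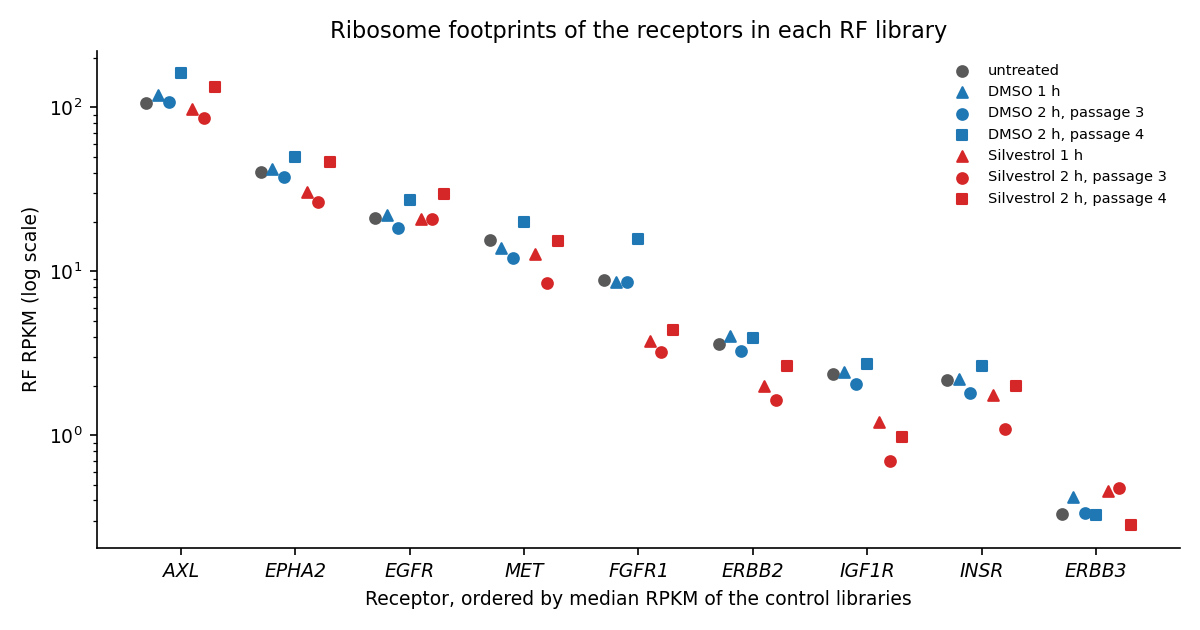
RF RPKM (log axis) of 9 receptors in the 7 RF libraries, grey for untreated, blue for DMSO and red for Silvestrol cells, with triangles at 1 h, circles for passage 3 and squares for passage 4. Each point is 1 library. DDR1 had no footprints and is not drawn. The red points lie below every blue and grey point for FGFR1, ERBB2 and IGF1R.

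Footprints of the receptors were few for their mRNA. Translation efficiency (TE), the RF RPKM over the mRNA RPKM, was below the all-gene median of 1.84 in each of the 8 tested receptors in DMSO cells at passage 3. The lowest was ERBB2 at 0.127, from 3.27 RF and 25.8 mRNA RPKM, lower than in all but 1.06% of genes. FGFR1 was at 0.250, EPHA2 at 0.315, AXL at 0.358, MET at 0.414, INSR at 0.483 and IGF1R at 0.485. EGFR was the highest at 0.573, at the 14.2 percentile. With the untreated or the passage 4 RF library over the same mRNA library the 8 stayed below the median. AXL mRNA, at 303 RPKM, exceeded that of 98.5% of genes. In DMSO cells of the INK128 experiment, where TE was taken over total RNA, EGFR was above the median of 12.5 with 19.6, and the other 9 receptors were below it, between 2.88 for ERBB3 and 12.4 for MET.

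**Figure D2:**
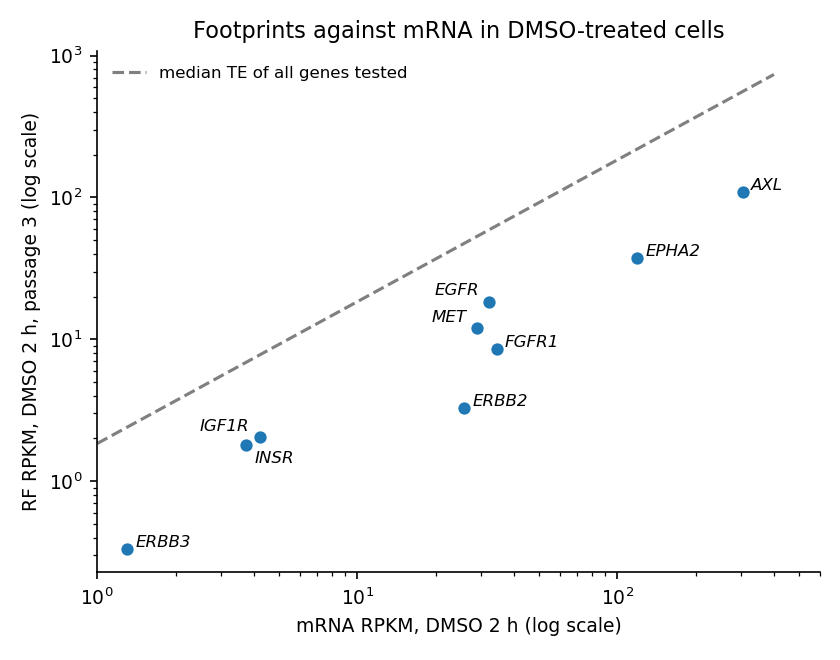
RF RPKM at passage 3 against mRNA RPKM (both log axes) after DMSO for 2 h, with 1 point per receptor. The dashed line is the median TE of all genes tested, 1.84, and the 9 receptors drawn lie below it.

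Footprints were higher at passage 4 than at passage 3 for each of the 8 tested receptors, with either treatment. In DMSO cells the difference was between 0.25 for ERBB2 and 0.88 for FGFR1 on the log2 scale, and in Silvestrol cells between 0.45 for FGFR1 and 0.86 for INSR. The median over all genes was -0.02 in DMSO cells and 0.05 in Silvestrol cells, and each receptor lay above 73.8% of genes or more. This shared shift adds to the spread within each treatment in the test without passage as a block, so values from both fits are given for the receptors whose call differs.

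After Silvestrol for 2 h the lowest footprint ratios were those of FGFR1 and IGF1R, which had 0.279 to 0.377 of the DMSO level in each passage. RPKM are shares of a library, so fewer footprints on a receptor and more on other mRNAs cannot be told apart. These 2 missed the adjusted threshold of 0.05 by little when the passages were treated as independent and passed it when passage was a block. ERBB2 was intermediate, INSR, MET, AXL and EPHA2 had values closer to those of most genes, and EGFR was the only one of the 8 with a higher estimate after Silvestrol. Without the block 0 of the 8 tested receptors were called, against 7.76% of all genes called lower and 2.23% called higher in the edgeR quasi-likelihood test, and 2 of the 8 had an unadjusted p under 0.05, against 31.3% of genes. With the block 4 of the 8 were called lower, FGFR1, IGF1R, ERBB2 and MET, and 1 higher, EGFR, against 28.1% and 25.0% of all genes. DESeq2 without the block called 2 lower, FGFR1 and IGF1R, and 0 higher, against 9.60% and 5.31% of genes. RPKM of the DMSO and Silvestrol libraries at 2 h did not overlap for FGFR1, IGF1R and ERBB2, lower with Silvestrol in all 3, as was so for 40.1% of all genes, and overlapped for the other 5.

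FGFR1 RF levels at 2 h were 8.60 RPKM (727 reads) in DMSO and 3.24 RPKM (135 reads) in Silvestrol cells at passage 3, and 15.8 RPKM (320 reads) and 4.42 RPKM (38 reads) at passage 4. Both Silvestrol libraries lay below both DMSO libraries and below the untreated library at 8.82 RPKM. The log2 change was -1.56 (SE 0.34, edgeR adjusted p = 0.0515, n = 2 passages per treatment), and -1.43 (SE 0.18, edgeR adjusted p = 2.6e-14) with passage as a block. At 1 h FGFR1 was already at 3.74 RPKM with Silvestrol against 8.67 RPKM with DMSO, in 1 library each. Its mRNA was 34.3 RPKM with DMSO and 23.8 RPKM with Silvestrol, a log2 difference of -0.53, so part of the footprint difference was matched by mRNA.

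IGF1R had fewer reads than FGFR1 and a similar ratio. Its RF levels at 2 h were 2.05 RPKM (294 reads) with DMSO and 0.697 RPKM (49 reads) with Silvestrol at passage 3, and 2.72 RPKM (93 reads) and 0.970 RPKM (14 reads) at passage 4. No Silvestrol library reached the lowest control library, and the 1 h Silvestrol library, at 1.21 RPKM against 2.42 RPKM with DMSO, lay between the control and the 2 h values. The log2 change at 2 h was -1.43 (SE 0.31, edgeR adjusted p = 0.0504) and -1.40 (SE 0.26, edgeR adjusted p = 6.7e-07) with the block. IGF1R mRNA was not lower, with 4.22 RPKM in DMSO and 4.64 RPKM in Silvestrol cells. Footprints and mRNA thus went apart for IGF1R in these libraries, with 1 mRNA library per treatment. A test of the RF change against the mRNA change, described below, did not call IGF1R without the block (edgeR adjusted p = 0.123). With the block it did (edgeR adjusted p = 0.0015).

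ERBB2 RF levels were 3.27 RPKM (430 reads) with DMSO and 1.63 RPKM (105 reads) with Silvestrol at passage 3, and 3.898 RPKM (122 reads) and 2.64 RPKM (35 reads) at passage 4. The groups did not overlap, yet the 2 passages differed in size, with log2 ratios of -1.004 and -0.56. The log2 change in the test was -0.67 (SE 0.29, edgeR adjusted p = 0.194), and -0.71 (SE 0.21, edgeR adjusted p = 0.0025) with the block. On leaving out 1 library the change ran from -0.97, without the passage 4 Silvestrol library, to -0.38, without the passage 3 one. ERBB2 mRNA was 25.8 RPKM with DMSO and 18.7 RPKM with Silvestrol.

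INSR, the partner of IGF1R by sequence and by hybrid receptors, had 1.81 RPKM (263 reads) with DMSO and 1.10 RPKM (78 reads) with Silvestrol at passage 3, and 2.64 RPKM (91 reads) and 1.99 RPKM (29 reads) at passage 4. The treatments overlapped, and the log2 change of -0.46 (SE 0.37) had an edgeR adjusted p of 0.442, or 0.0799 with the block. Without the passage 3 Silvestrol library the change was -0.096, and without the passage 4 Silvestrol library -0.84. INSR had the highest mRNA ratio among the receptors, with 3.75 RPKM with DMSO and 4.71 RPKM with Silvestrol.

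MET RF levels were 11.98 RPKM with DMSO and 8.52 RPKM with Silvestrol at passage 3, and 19.9 and 15.3 RPKM at passage 4. The passage 4 Silvestrol level exceeded the passage 3 DMSO level, and the log2 change of -0.31 (SE 0.33) had an edgeR adjusted p of 0.566 without the block and 0.0265 with it. AXL had 109 RPKM with DMSO and 85.7 RPKM with Silvestrol at passage 3, and 162 and 133 RPKM at passage 4, a log2 change of -0.19 (SE 0.25, edgeR adjusted p = 0.645, or 0.0648 with the block). With 10128 and 3912 reads at passage 3 the counting interval of its log2 ratio ran from -0.39 to -0.29, narrower than the shift between passages. EPHA2 had 37.5 and 26.6 RPKM at passage 3 and 49.7 and 46.2 RPKM at passage 4, with a log2 change of -0.14 (SE 0.27, edgeR adjusted p = 0.753, or 0.138 with the block). The sign of each of these 3 changes depended on single libraries. Leaving out 1 library, MET ran from -0.73 to 0.042, AXL from -0.49 to 0.082 and EPHA2 from -0.55 to 0.16.

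EGFR was the only one of the 8 tested receptors with a positive log2 change. Its RF levels at 2 h were 18.4 RPKM with DMSO and 20.9 RPKM with Silvestrol at passage 3, and 27.4 and 29.5 RPKM at passage 4. Silvestrol was the higher within each passage, by 0.18 and 0.11 on the log2 scale, while the treatments overlapped across passages. The log2 change was 0.26 (SE 0.23, edgeR adjusted p = 0.484) and 0.27 (SE 0.11, edgeR adjusted p = 0.0298) with the block. Leaving out 1 library moved it between 0.025, without the passage 3 DMSO library, and 0.52, without the passage 4 DMSO library, and it was 0.041 without the passage 4 Silvestrol library. At 1 h EGFR was at 22.2 RPKM with DMSO and 21.0 RPKM with Silvestrol, a log2 difference of -0.08.

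**Figure D3:**
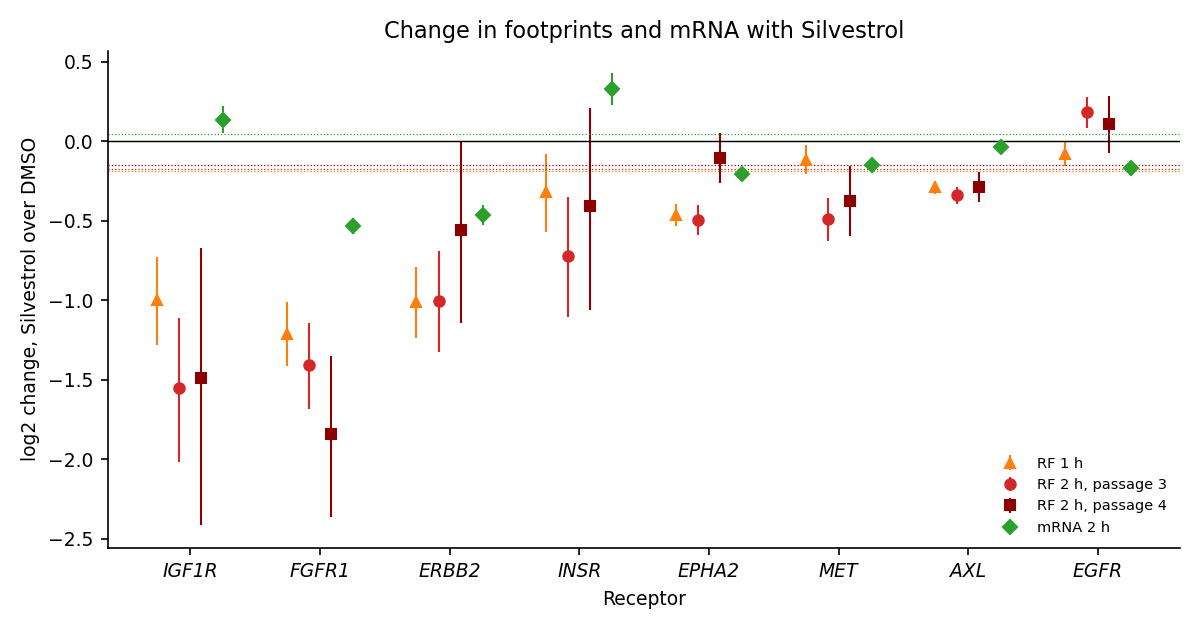
Log2 ratio of Silvestrol to DMSO RPKM for 8 receptors, for RF at 1 h (triangles), RF at 2 h at passage 3 (circles) and passage 4 (squares) and mRNA at 2 h (diamonds). Bars are 95% intervals for counting error only, and dotted lines are the all-gene medians of the same color. IGF1R and FGFR1 have the lowest RF ratios at 2 h, and EGFR alone lies above 0 in both passages at 2 h.

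At 1 h, with 1 library per treatment and hence no test, all 8 receptors had a lower RF RPKM with Silvestrol. FGFR1, ERBB2 and IGF1R were lower by 1 or more on the log2 scale, with -1.21, -1.01 and -1.001, as were 7.98% of genes. EPHA2 was at -0.47, INSR at -0.32, AXL at -0.29 and MET at -0.12, around an all-gene median of -0.18. With ratios of each gene's share of counted reads in place of RPKM, 1 receptor, FGFR1, was past 1 in the lower direction, as were 5.14% of genes, and EGFR and MET were at 0.04 and 0.0042. The median over the 8 receptors was -0.39 at 1 h, and at 2 h -0.61 at passage 3 and -0.39 at passage 4 beside all-gene medians of -0.17 and -0.15.

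None of the 8 receptors had an mRNA ratio past 1 on the log2 scale in either direction after 2 h, where 1.78% of genes were lower and 4.71% higher by that much. Ratios ran from -0.53 for FGFR1 and -0.46 for ERBB2, through -0.21 for EPHA2, -0.17 for EGFR, -0.15 for MET and -0.04 for AXL, to 0.14 for IGF1R and 0.33 for INSR. The median of all genes was 0.04. ERBB3 mRNA was at 1.30 RPKM (453 reads) with DMSO and 0.659 RPKM (118 reads) with Silvestrol. DDR1, a collagen receptor, was counted at 58 mRNA reads in DMSO cells and 22 in Silvestrol cells, a log2 ratio of -1.61 with a counting interval from -2.39 to -0.88. These low counts come from 1 of its 4 entries in the Silvestrol data, the counting kept uniquely mapped reads, and all 4 entries had 0 RF reads in every library, while DDR1 had 10.5 FPKM in the RF library of DMSO cells in the INK128 experiment. Whether DDR1 was translated at these times in the Silvestrol experiment was therefore not measured.

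ΔTE is the change of RF relative to mRNA, and IGF1R had the lowest value of the 8 tested receptors, though its difference from FGFR1 was not tested. IGF1R TE was 0.485 with DMSO and 0.150 with Silvestrol, that of FGFR1 0.250 and 0.136, and that of ERBB2 0.127 and 0.0871. As z-scores over all tested genes, where the study calls a TE changed past 1.5 in either direction, IGF1R was at -1.41, INSR at -0.75, FGFR1 at -0.57, ERBB2 at -0.23, MET at -0.02, AXL at 0.01, EPHA2 at 0.03 and EGFR at 0.69. None of the 8 was past -1.5 or 1.5, against 6.75% and 4.85% of genes. Taken from the median and MAD (median absolute deviation), the z-score of IGF1R was -1.48. These scores rest on passage 3 footprints alone. The study scored another set of genes and its own scores were not used. The values here therefore do not tell which receptors the study listed as sensitive. With the passage 4 footprints over the same mRNA libraries IGF1R was at -1.39, FGFR1 at -1.06, INSR at -0.46, AXL at 0.05, MET at 0.08, ERBB2 at 0.21, EPHA2 at 0.42 and EGFR at 0.61, so that ERBB2 and MET changed sign, again with none past the thresholds. ERBB3, outside the minimum values, had 1.86 at passage 3 from 47 and 33 RF reads and 1.12 at passage 4 from 11 and 4 RF reads, where its RF ratio was -0.22 on the log2 scale.

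In the edgeR test of the RF change against the mRNA change, 0 of the 8 receptors were called, against 0.0190% of genes called lower and 0 higher, while 24.9% of genes had an unadjusted p under 0.05. Of the receptors IGF1R did, with a log2 ΔTE of -1.45 (SE 0.41, edgeR adjusted p = 0.123). With passage as a block IGF1R was called lower at -1.40 (SE 0.28, edgeR adjusted p = 0.0015), FGFR1 was called lower at -0.77 (SE 0.23, edgeR adjusted p = 0.0165) and EGFR higher at 0.57 (SE 0.18, edgeR adjusted p = 0.0192), beside 22.5% and 22.7% of genes. Without the block FGFR1 was at -0.92 (SE 0.54, edgeR adjusted p = 0.3498) and EGFR at 0.54 (SE 0.40, edgeR adjusted p = 0.445). On leaving out 1 library the ΔTE of FGFR1 ran from -1.31 to -0.51, lowest without the passage 3 DMSO library. That of EGFR ran from 0.30, without the passage 3 DMSO library, to 0.78, without the passage 4 one. INSR was at -0.68 (edgeR adjusted p = 0.478, or 0.0647 with the block), with -0.31 without the passage 3 Silvestrol library and -1.0001 without the passage 4 one, and the other 4 were between -0.10 and 0.17. The mRNA had 1 library per treatment, so the spread in this test comes from the RF libraries. DESeq2 called 0 of the 8, against 5.10% of genes lower and 3.59% higher.

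**Figure D4:**
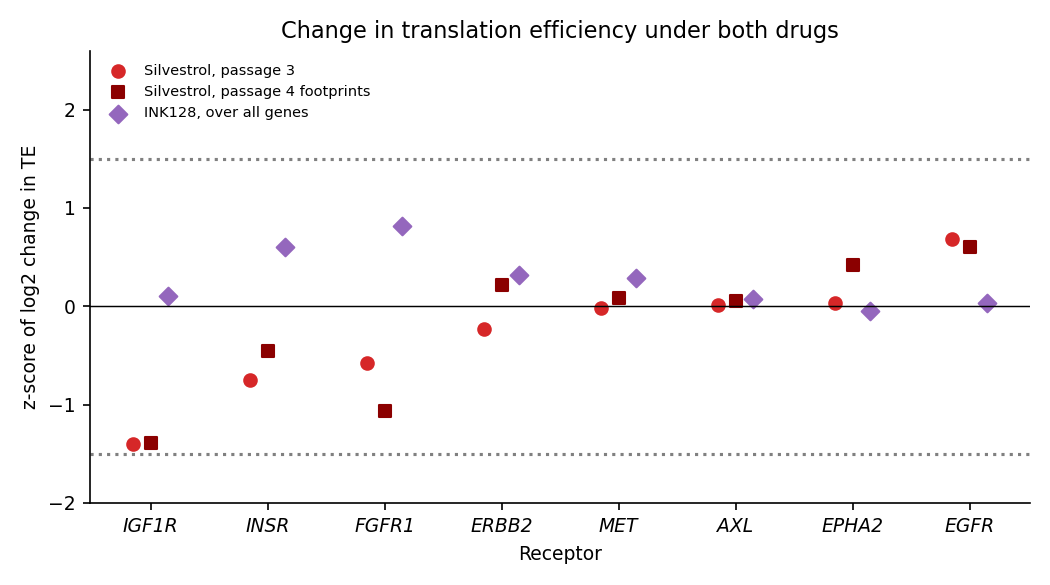
z-score of the log2 TE change for the 8 tested receptors with Silvestrol, using RF of passage 3 (circles) or passage 4 (squares), and with INK128 over all genes of that experiment (diamonds). Dotted lines mark -1.5 and 1.5. No point lies past them, IGF1R with Silvestrol being nearest.

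The lowest footprint changes were on the 2 receptors with the longest 5′ UTRs. IGF1R and FGFR1, with 1043 and 743 nt, were at -1.43 and -1.56 in the RF test, INSR with 523 nt at -0.46, MET with 396 nt at -0.31 and EGFR with 261 nt at 0.26. ERBB2, with 175 nt, lay below INSR and MET at -0.67, and AXL and EPHA2, with 170 and 137 nt, at -0.19 and -0.14. With the longest annotated 5′ UTR of each gene in place of the selected transcript's, ERBB2 had 797 nt, after IGF1R with 1043 nt and FGFR1 with 942 nt, and DDR1 had 700 nt, INSR 523 nt, ERBB3 456 nt, MET 396 nt, AXL 376 nt, EGFR 307 nt and EPHA2 137 nt. ERBB2 then had a longer 5′ UTR than INSR and MET, and which transcript the cells use was not tested. Among all tested genes with 5′ UTRs of 500 nt or more, 642 in number, the median RF change was -0.90 and 33.5% were called lower, whereas among the 3954 genes under 100 nt the median was 0.30 and 0.683% were called lower. With passage as a block, the fit that called IGF1R and FGFR1, the shares called lower were 73.2% and 7.18%. INSR was thus above, and IGF1R and FGFR1 below, the median of the genes with 5′ UTRs as long as theirs. EGFR and MET lay above the median of -0.42 of the 2772 genes with 200 to 500 nt, and ERBB2, AXL and EPHA2 below the median of -0.05 of the 2875 genes with 100 to 200 nt. Placement by the passage 3 z-score of the TE change differed for 3 receptors. FGFR1 at -0.57 was above the median of -1.11 of genes with 500 nt or more, as was INSR, while IGF1R was below it. AXL at 0.01 and EPHA2 at 0.03 were above the median of -3.1e-05 of genes with 100 to 200 nt, and ERBB2 was below it.

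**Figure D5:**
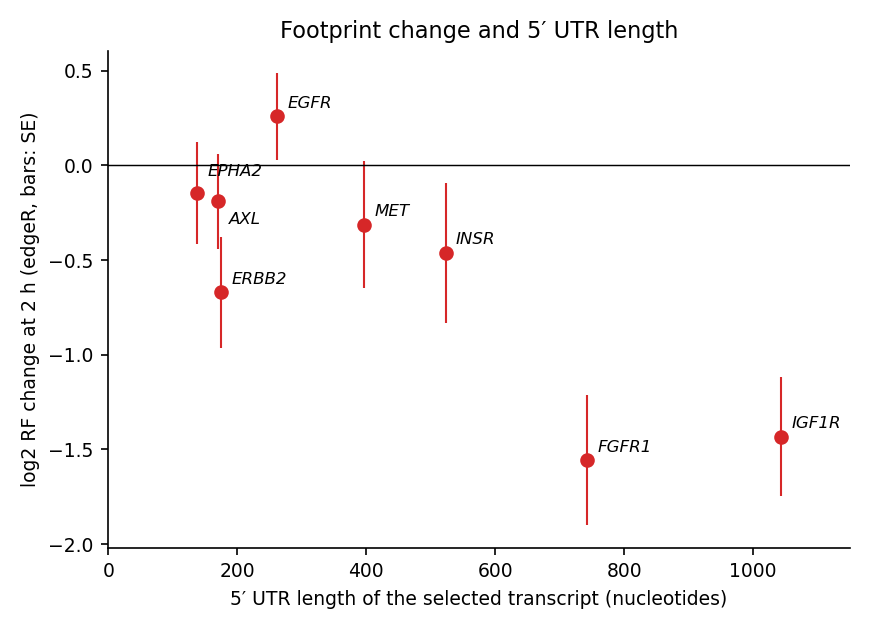
Log2 RF change at 2 h with Silvestrol from the edgeR fit without the block (bars, SE) against the annotated 5′ UTR length in nt, with 1 point per receptor. FGFR1 and IGF1R, at 743 and 1043 nt, are the only points below -1.

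With INK128 the receptors' RF ratios lay between the 5th and 95th percentiles of all genes, -0.50 and 0.56 on the log2 scale. RF levels in FPKM, with 1 library per treatment and no counts behind them, were 49.5 with DMSO and 55.7 with INK128 for EGFR, 156 and 162 for AXL, 87.8 and 70.8 for EPHA2, and 21.8 and 27.5 for MET. EPHA2 was the only one of the 10 receptors with a lower RF value, at -0.31 on the log2 scale. The median log2 RF ratio of the 10 receptors was 0.19, beside 0.02 for all genes. IGF1R had 1.10 and 1.40 FPKM, FGFR1 9.96 and 12.6 FPKM, and INSR 2.29 and 2.72 FPKM, the receptors that held the lowest TE z-scores with Silvestrol. None of the 10 RF ratios was past 1 on the log2 scale, against 1.62% of genes lower and 1.81% higher.

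Total RNA FPKM was lower with INK128 for all 10 receptors, from -0.73 for ERBB3 to -1.43 for EPHA2, around an all-gene median of -1.17. By at least 1 on the log2 scale the total RNA value was lower in 68.7% of all genes, so the receptors' TE values are given relative to the other genes. The z-score of the TE change over all genes ran from -0.33 for ERBB3 to 0.82 for FGFR1, with IGF1R at 0.10, INSR at 0.61, ERBB2 at 0.32, MET at 0.28, AXL at 0.07, EGFR at 0.03, EPHA2 at -0.04 and DDR1 at -0.07. None was past -1.5 or 1.5, against 5.61% and 3.72% of genes. Only 6 receptors, EGFR, MET, AXL, FGFR1, EPHA2 and DDR1, reached a mean of 1 FPKM in both assays, and over the 3145 genes that did, FGFR1 had 0.95, or 1.67, past 1.5, when the z-score was taken from the median and MAD. Of those genes 1.08% were above 1.5 by the mean and SD and 5.82% by the median and MAD. The 2 experiments were normalized separately and were not tested against each other.

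Genes that act with the receptors were described by list. Among 19 adaptors tested, 5 were called lower at 2 h without the block (11 with it) and 0 higher (2 with it), with a median log2 RF change of -0.35 beside -0.01 for all genes. Of all genes 7.76% were called lower and 2.23% higher without the block, and 28.1% and 25.0% with it. GRB10, an adaptor that binds IGF1R and INSR, fell from 37.04 to 10.4 RPKM at passage 3 and from 33.6 to 10.6 RPKM at passage 4, a log2 change of -1.63 (SE 0.18, edgeR adjusted p = 0.0173). IRS1, the main substrate of those 2 receptors, fell from 29.9 to 9.80 RPKM and from 23.0 to 10.8 RPKM, a log2 change of -1.24 (SE 0.20, edgeR adjusted p = 0.0284), while its mRNA was 15.9 RPKM with DMSO and 20.8 RPKM with Silvestrol. The exchange factor SOS2, which activates RAS, had a log2 change of -1.07, CRKL -0.94 and GRB2 -0.69 (edgeR adjusted p = 0.0361, 0.0415 and 0.0440).

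Among 21 negative regulators tested, 4 were called lower (9 with the block) and 0 higher (4 with the block), with a median of -0.13, beside the same shares of all genes. PTPN12, a tyrosine phosphatase, fell from 70.7 to 21.9 RPKM at passage 3 and from 67.9 to 23.2 RPKM at passage 4, a log2 change of -1.496 (SE 0.13, edgeR adjusted p = 0.0160), and its mRNA was 32.6 RPKM with DMSO and 65.5 RPKM with Silvestrol. UBASH3B, a phosphatase that acts on EGFR and CBL signalling, was at -1.39, PTPN1, the phosphatase that dephosphorylates INSR, at -1.20, and STAM, of the endosomal sorting machinery, at -0.69 (edgeR adjusted p = 0.0160, 0.0221 and 0.0451).

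Of 10 ligands, 6 sheddases and 11 other receptor tyrosine kinases tested, 0 were called without the block, and with it 5, 4 and 2 were called lower and 2, 1 and 3 higher, where 28.1% of all genes were lower and 25.0% higher. NRG1, a ligand of ERBB3, had 22.1 RPKM with DMSO and 8.69 RPKM with Silvestrol at passage 3 and 15.8 and 8.28 RPKM at passage 4 (log2 -1.04, SE 0.25, edgeR adjusted p = 0.0592, or 2.0e-10 with the block). EREG, a ligand of EGFR, had 18.1 and 36.7 RPKM at passage 3 and 30.8 and 40.6 RPKM at passage 4 (log2 0.81, SE 0.29, edgeR adjusted p = 0.136, or 6.5e-06 with the block), with mRNA of 5.17 and 9.77 RPKM. EFNA5, a ligand of EPHA receptors, was at -0.84 (edgeR adjusted p = 0.343), and the sheddases ADAM10, ADAM17 and ADAM9, which release EGFR ligands and receptor ectodomains, were at -0.88, -0.57 and -0.52 (edgeR adjusted p = 0.301, 0.217 and 0.419). With the block these 4 had adjusted p of 0.00074, 3.0e-10, 0.0059 and 2.1e-05.

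Among the other receptor tyrosine kinases, 12 of 48 had no RF reads in the control libraries and 11 were tested. ROR1, a receptor of WNT5A, was at -0.87 (SE 0.53, edgeR adjusted p = 0.323, or 0.00011 with the block), with 4.49 and 2.42 RPKM at passage 3 and 10.6 and 5.47 RPKM at passage 4. MERTK, the relative of AXL, was at 0.70 (SE 0.47, edgeR adjusted p = 0.365, or 0.0014 with the block), and EPHB2, of the family of EPHA2, at 0.70 (SE 0.32, edgeR adjusted p = 0.213, or 0.00028 with the block). EPHB2 was the one of these with a TE z-score past 1.5, at 1.53, from mRNA of 18.0 RPKM with DMSO and 11.4 RPKM with Silvestrol. Below -1.5 were 3 of the 10 ligands, 4 of the 19 adaptors and 1 of the 21 negative regulators, beside 6.75% of all genes, with 4.85% above 1.5. Of the genes named here PTPN12 was at -2.44, EFNA5 at -1.87, IRS1 at -1.72 and GRB10 at -1.61.

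The genes whose RF levels followed those of AXL most closely over the 7 RF libraries, among 10423 genes with a value in each, were OXTR with a Pearson r of 0.994 and SLC16A13 and SLC7A6 with 0.991. The 7 libraries come from 1 line and differ in depth, from 2652423 to 31188148 counted reads, and the passage 4 libraries were the high points for AXL.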

How the data were processed

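Ribosome footprints and RNA of MDA-MB-231 cells were sequenced by the study, and its 2 processed tables were used. Per the paper's methods linker and rRNA sequence was taken out and reads were aligned by the authors with Bowtie to hg19 (GRCh37) and UCSC canonical transcripts, and kept uniquely mapped reads. The authors deposited read counts and RPKM values per transcript for the Silvestrol experiment, and FPKM values per gene, with no counts, for the INK128 experiment, so the depth behind the latter is unknown. The deposited ratio (TE), log2 change and score columns of the authors' own comparisons, and their pooled RPKM means, were not used.

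Repeated lines were dropped (38897 lines, 25758 distinct), and a symbol with several entries (546 symbols) was represented by the one of highest mean 2 h RF RPKM. Genes were tested with RPKM above 0 in the passage 3 RF libraries at 2 h and both mRNA libraries, and means of at least 1 RPKM over those RF libraries and 0.3 RPKM over the mRNA libraries. edgeR 4.0.16 in R 4.3.3 (TMM, quasi-likelihood test, Benjamini-Hochberg over 10505 genes, threshold 0.05) tested RF counts at 2 h, and TE as the assay by treatment interaction over 6 libraries. DESeq2 1.42.0 was an alternative. The scripts were tested on simulated data. Replicates 1 and 2 are passages 3 and 4, named by the labels. Over 10505 genes the passage deviations in DMSO cells had a correlation of 0.69 with those in Silvestrol cells, so passage pairs the libraries, and the fit with passage as a block has few residual degrees of freedom per gene and rests on the spread shared across genes. ΔTE z-scores used log2 RPKM ratios of passage 3 with no pseudocount. RPKM ratios have exact binomial 95% intervals, which cover counting error only. 5′ UTRs came from GENCODE 44 (GRCh37), MANE Select first, for 97.5% of tested genes, with names matched also through synonyms, and folding energies from RNAfold 2.7.2.

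The 10 receptors, the gene lists and the markers were chosen with earlier results of these data known. All receptors are named, and from each list at most 5 genes past the RF test without the block by p. To reach 3, those with the largest RF change of 1 sign in both passages were added, from genes with at least 50 reads in each 2 h DMSO RF library.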

Additional observations from a re-analysis of the deposited data

Results flagged for a closer look

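EGFR footprints had a log2 ratio of -0.079 with Silvestrol at 1 h and of 0.18 and 0.11 at 2 h in the 2 passages, so the time points lay on opposite sides of 0. The difference between the times was not tested, since 1 h has 1 library per treatment. With ratios of each library's share of counted reads the 1 h value was 0.04, on the same side as the 2 h values.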

How the results depend on the processing

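The number of receptors called lower in RF at 2 h was 0 without the block, 4 with the replicate block, 2 with DESeq2, 2 with no minimum values, 1 with an offset for counted length, and 0 to 2 on leaving out 1 library. Of all genes 6.98% were lower with no minimum values, 10.2% with the length offset, and 6.95% and 8.80% without the passage 3 or passage 4 DMSO library. Without the passage 3 DMSO library FGFR1 (edgeR adjusted p = 0.0159) and IGF1R (0.0456) were called, and without the passage 4 DMSO library FGFR1 (0.0464). Without either Silvestrol library 0 of all genes were called, 15.2% and 18.2% of genes having an unadjusted p under 0.05. 1 receptor, EGFR, was called higher, in RF and in TE, with the replicate block only. For ΔTE 2 receptors were called lower with the replicate block and 0 to 2 on leaving out 1 library, the 2 being IGF1R (edgeR adjusted p = 0.0413) and FGFR1 (0.0440) without the passage 3 DMSO library. Passage as a block changed no other call of a receptor. Leaving out 1 library turned the sign of the RF change of MET (-0.73 to 0.042), AXL (-0.49 to 0.082) and EPHA2 (-0.55 to 0.16), and of the ΔTE of ERBB2 (-0.34 to 0.19), MET (-0.42 to 0.27), AXL (-0.31 to 0.19) and EPHA2 (-0.18 to 0.47), and DESeq2 turned that of MET (0.0012). In fits that leave 1 library in a treatment, that library is assumed to vary like the others. IGF1R, FGFR1 and INSR were below 0 in every one of these fits, for RF and for ΔTE, and ERBB2 was in every one for RF. At 1 h 1 receptor in place of 3 was past 1 with a pseudocount of 0.5 RPKM (6.38% of genes), and 1 with shares of counted reads (5.14%). Without minimum values 1 receptor, ERBB3, had a z-score above 1.5 with Silvestrol (4.89% of genes). With INK128 1 receptor, FGFR1, was above 1.5 (1.67) by median and MAD (5.82% of genes). Baseline TE was above the median in 1 receptor by FPKM of the INK128 experiment. The cause was not tested. Over all genes 815 were called lower and 234 higher in RF, 2954 and 2626 with the block and 1009 and 558 with DESeq2. For ΔTE the numbers were 2 and 0, 2367 and 2389 with the block, 536 and 377 with DESeq2, 166 and 18 without minimum values, and 0 and 0 with the length offset. Without the passage 3 DMSO library 671 and 395 were called, and without the passage 4 one 231 and 46. IGF1R, INSR, ERBB2 and FGFR1 had 14 to 38 reads in the passage 4 Silvestrol library, which limits their precision.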
